A study of Mus musculus with 24 samples.

Results

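The core circadian clock genes encode the transcription factors and inhibitors of the feedback loop that keeps daily time in liver cells. The 10 members were taken by symbol: the activators Arntl, Clock and Npas2, the period genes Per1, Per2 and Per3, the cryptochromes Cry1 and Cry2, and Nr1d1 and Nr1d2, which encode the nuclear receptors REV-ERB alpha and REV-ERB beta. All 10 were among the 46093 gene symbols found in both count tables. The livers came from C57BL/6 mice in 8 groups of 3 libraries. In each sex these were Cyp2b-null mice on a high-fat diet (HFD, 60% fat), wild-type (WT) mice on HFD, Cyp2b-null mice on normal chow (ND) and WT mice on ND, with 10 weeks of feeding in every group. Cyp2b-null mice are labelled as lacking Cyp2b9, Cyp2b10 and Cyp2b13, a cluster of hepatic cytochrome P450 genes, in an otherwise shared strain background. The labels name no age and do not say whether each library is 1 animal, and a p-value here reflects only how far these libraries spread, which may be technical.

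In the core loop, ARNTL (also called BMAL1) pairs with CLOCK or NPAS2 and binds E-box sequences to switch on Per, Cry and Nr1d genes. PER and CRY proteins then inhibit that pair, and the REV-ERB receptors, bound at sequences called ROREs, repress Arntl, Npas2 and Clock. In mouse liver the transcripts of Arntl and Npas2 are therefore high at the hours when those of Nr1d1, Nr1d2 and Per3 are low, and the other way round. The hour at which the livers were taken is not given in the sources used here, so a difference between groups and a difference in sampling hour cannot be told apart in any result.

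Promoters from RefSeq (build GRCm38.p6, 250 bases before to 50 after an annotated start) were found for 9 of the 10 members, with 13 windows in all, and Per2 was named only. They were searched on both strands for the E-box CACGTG, the D-box TTATGTAA or TTACGTAA, which is bound by DBP, TEF and HLF, the cyclic AMP response element TGACGTCA, and the RORE, by name. Of 32851 promoters of this length, 7.15% hold the E-box, 1.06% the D-box, 1.79% the cyclic AMP response element and 0.384% the RORE. The 4 windows with a match are shown, 1 of the activator Arntl and 3 of repressors whose values follow. Capitals mark the match, and positions count from the annotated start as 0. The Per3 window at chr4:151044616-151044915 (reverse strand) has D-boxes at -205 and -158.
Per3: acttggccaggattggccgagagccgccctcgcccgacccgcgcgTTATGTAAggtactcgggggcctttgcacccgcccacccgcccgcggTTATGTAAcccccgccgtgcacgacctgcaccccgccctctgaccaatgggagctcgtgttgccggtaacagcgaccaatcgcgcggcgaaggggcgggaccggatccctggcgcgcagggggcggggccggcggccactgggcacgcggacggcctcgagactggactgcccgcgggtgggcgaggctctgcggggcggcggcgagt
The Arntl window at chr7:113207261-113207560 (forward strand) has a RORE from position 26.
Arntl: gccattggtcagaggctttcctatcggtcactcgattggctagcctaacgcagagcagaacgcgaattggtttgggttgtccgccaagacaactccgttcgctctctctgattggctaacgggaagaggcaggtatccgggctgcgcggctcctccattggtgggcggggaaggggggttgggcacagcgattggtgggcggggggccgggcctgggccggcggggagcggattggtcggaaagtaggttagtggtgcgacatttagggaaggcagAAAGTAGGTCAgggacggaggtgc
The Cry1 window at chr10:85185005-85185304 (reverse strand) has an E-box at -60.
Cry1: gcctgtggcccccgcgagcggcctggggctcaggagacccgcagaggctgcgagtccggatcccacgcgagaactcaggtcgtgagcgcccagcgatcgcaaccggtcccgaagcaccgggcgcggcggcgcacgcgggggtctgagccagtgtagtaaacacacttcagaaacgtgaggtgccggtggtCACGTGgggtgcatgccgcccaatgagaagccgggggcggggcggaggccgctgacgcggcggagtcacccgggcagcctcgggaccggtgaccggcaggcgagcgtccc
The Per1 window at chr11:69098699-69098998 (forward strand) has an E-box at -166.
Per1: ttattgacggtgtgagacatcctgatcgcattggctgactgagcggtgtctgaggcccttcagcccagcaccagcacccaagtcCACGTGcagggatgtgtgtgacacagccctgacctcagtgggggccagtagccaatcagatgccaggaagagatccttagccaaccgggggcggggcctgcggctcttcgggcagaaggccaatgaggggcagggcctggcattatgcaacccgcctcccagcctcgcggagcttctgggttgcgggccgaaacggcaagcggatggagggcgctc
The windows of Clock, Npas2, Cry2, Nr1d1 and Nr1d2 held none of these letters, which says nothing about binding elsewhere, and a match is a description, not a site.

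Library totals were 2005120 to 2661836 counts in females and 8282510 to 20176050 counts in males, so low members were measured less precisely in females. Extraction and library kit differ between the sexes per the labels' protocols (Trizol and NEB Next Ultra in females, RNeasy Plus Universal and TruSeq Total RNA in males) and cannot be told apart from sex. The 7 hepatocyte markers, Alb among them, summed to 42400 to 140000 CPM (a gene's counts scaled to a common library total) in the libraries. Female counts of Cyp2b13 followed the titles, with 0 in the 6 Cyp2b-null libraries and 565 to 1138 in the 6 WT libraries. Male counts do not settle the genotype labels (Cyp2b13 7 to 89 in libraries labelled Cyp2b-null and 23 to 85 in WT ones). One male library, replicate 1 of labelled Cyp2b-null ND, lay alone at one end of the first principal component (54.7% of the variance), with 32.0% mitochondrially encoded counts (at most 7.76% in the other male libraries) and 65.5 CPM over the 7 lymphocyte markers. It is called the divergent library, and male results whose call it changes, or whose value it moves by over 1.5 times, are given with and without it. Among females the first component (29.2%) set 5 libraries (Cyp2b-null HFD 2, Cyp2b-null ND 2, Cyp2b-null ND 3, WT HFD 1 and WT ND 1) apart from the other 7. Of these, WT ND 1 had 14.0% mitochondrially encoded counts and WT HFD 1 had 8.54%, above the other female libraries.

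Among the members, Nr1d1 had the highest level per exonic length in 7 of the 8 groups, and Npas2 the lowest in all groups but WT ND females, where Per3 was lowest. In females per kilobase (kb) of exon, Nr1d1 averaged 32.0 ± 11.0 CPM in Cyp2b-null HFD, 43.9 ± 7.08 in WT HFD, 53.0 ± 7.99 in Cyp2b-null ND and 36.7 ± 9.03 in WT ND livers (SD, n = 3 each). Nr1d2 came second with 11.0 to 16.8 CPM per kb. In males labelled Cyp2b-null on HFD the order was another: Per2 (20.3 ± 4.39 CPM per kb) and Nr1d2 (20.2 ± 1.89) stood above Per1 (11.2 ± 2.17) and Nr1d1 (11.0 ± 6.86), where neither pair differed within itself beyond its SD. The places of Arntl and Per3 differed between groups as well. Arntl stood at 1.60 ± 0.815 CPM per kb above Per3 at 0.228 ± 0.119 in WT ND females, whereas in Cyp2b-null ND females Per3 (1.36 ± 0.388) stood above Arntl (0.247 ± 0.0880). Npas2 did not pass the filter on low counts in either table, so 9 of the 10 members were tested per sex (11830 genes in females, 14873 in males).

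**Figure D1:**
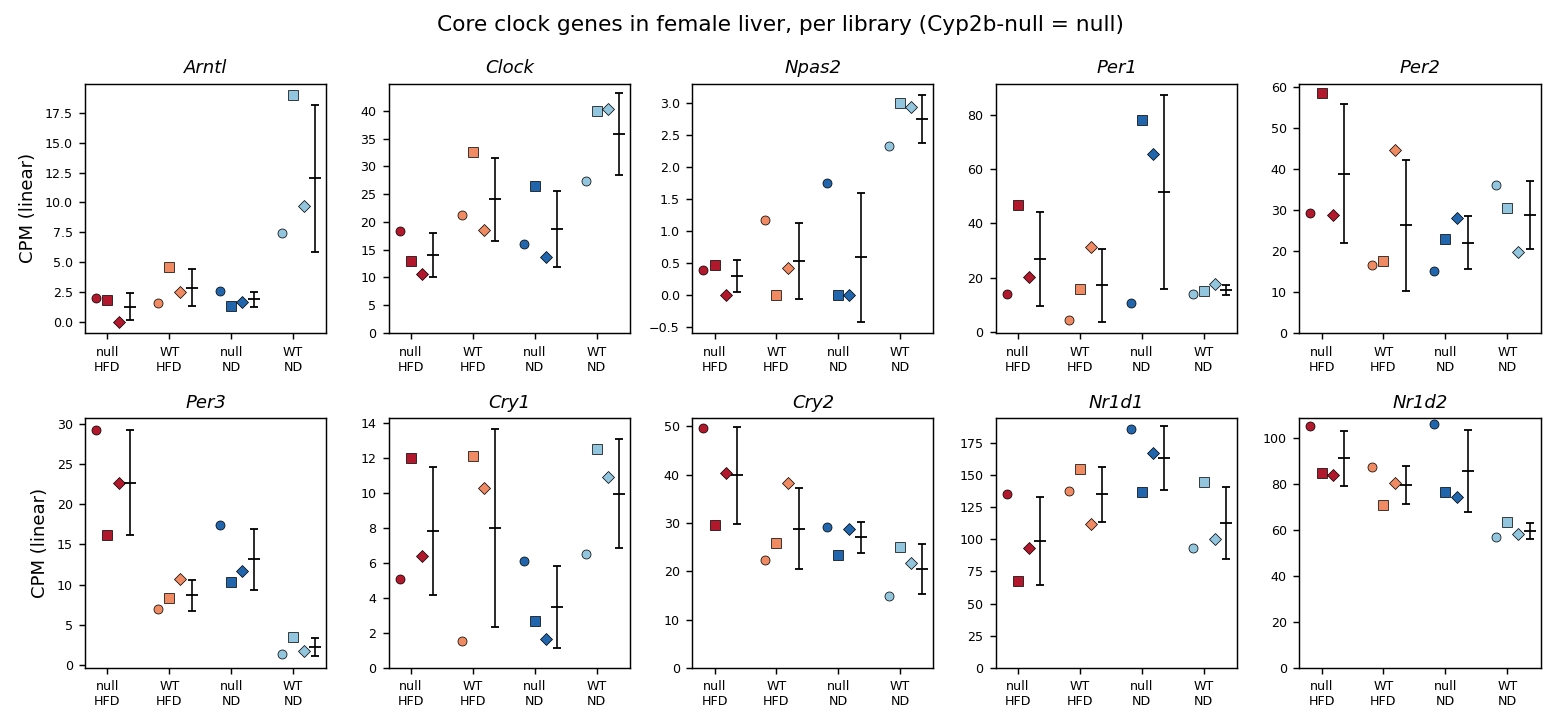
Level of each member in the 12 female liver libraries in CPM on linear axes, with Cyp2b-null HFD, WT HFD, Cyp2b-null ND and WT ND from left to right, circle, square and diamond for libraries 1, 2 and 3, and the bar for mean ± SD (n = 3). Arntl and Npas2 lie highest and Per3 lowest in the 3 WT ND libraries.

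Arntl, the obligate partner in the activator pair, was highest in the WT ND libraries of females. Its levels were 1.96, 1.85 and 0 CPM in Cyp2b-null HFD livers, 1.54, 4.58 and 2.47 CPM in WT HFD livers, 2.61, 1.35 and 1.62 CPM in Cyp2b-null ND livers, and 7.41, 19.0 and 9.66 CPM in WT ND livers. All WT ND libraries lay above all others, while the other 3 groups overlapped. These rest on few reads: 0 to 11 counts per library outside WT ND, against 16, 38 and 23 within it. The 0 in Cyp2b-null HFD library 3 allows up to 3 counts, or 1.13 CPM (counting error only). In bulk liver, fewer cells of a type and less RNA per cell cannot be told apart here. On ND the log2 difference, Cyp2b-null minus WT, was -2.65 ± 0.66 (SE; 95% interval -4.05 to -1.26; edgeR quasi-likelihood adjusted p = 0.178). In WT livers HFD minus ND gave -2.05 ± 0.62 (adjusted p = 1.0).

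In male livers too, Arntl averaged highest in WT ND. It had 4.90, 3.83 and 3.27 CPM in labelled Cyp2b-null HFD livers, 3.69, 3.02 and 1.77 CPM in WT HFD livers, 2.68, 2.04 and 1.70 CPM in labelled Cyp2b-null ND livers, and 17.4, 13.6 and 4.53 CPM in WT ND livers. WT ND libraries 1 and 2 lay far above the rest, whereas WT ND library 3 lay below Cyp2b-null HFD library 1. The log2 difference of labelled Cyp2b-null minus WT on ND was -2.49 ± 0.47 (95% interval -3.51 to -1.46, edgeR adjusted p = 0.165) and that of HFD minus ND in WT was -2.08 ± 0.46 (adjusted p = 0.311). Without the divergent library, Arntl fell on HFD in WT males (-2.09 ± 0.42, edgeR adjusted p = 0.0416), while the ND genotype difference stayed above the threshold (-2.65 ± 0.50, adjusted p = 0.066). Without WT ND library 3 the genotype difference on ND was -2.88 and passed (adjusted p = 0.0386), and without labelled Cyp2b-null ND library 2 it was -2.50 and passed (adjusted p = 0.0436).

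Npas2, which can replace CLOCK as the partner of ARNTL, also averaged highest in WT ND livers of both sexes, at very low depth. Female libraries had 1, 1 and 0 counts in Cyp2b-null HFD, 3, 0 and 1 in WT HFD, 4, 0 and 0 in Cyp2b-null ND, and 5, 6 and 7 in WT ND livers. A count of 0 allows up to 3 counts, or 1.13 to 1.34 CPM in these female libraries. Male libraries had 3, 1 and 0 counts in labelled Cyp2b-null HFD, 1, 1 and 5 in WT HFD, 1, 1 and 2 in labelled Cyp2b-null ND, and 16, 14 and 1 in WT ND livers. The female WT ND counts lay above all others, and in males WT ND 1 and 2 did while WT ND 3 did not. Npas2 was not tested in the main fit within either sex. With the divergent male library left out it gave -3.33 ± 1.05 for labelled Cyp2b-null minus WT on ND (edgeR adjusted p = 0.153). For HFD minus ND in WT males that fit gave -2.64 ± 0.86 (edgeR adjusted p = 0.147).

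Clock, the other partner of ARNTL, is known to vary little over the day in liver, and its differences were smaller. In females it ranged over 10.6 to 18.4 CPM in Cyp2b-null HFD, 18.5 to 32.5 CPM in WT HFD, 13.7 to 26.5 CPM in Cyp2b-null ND and 27.3 to 40.3 CPM in WT ND livers. The Cyp2b-null libraries lay below the WT libraries on each diet without overlap. The log2 differences were -0.94 ± 0.31 on ND (edgeR adjusted p = 0.49) and -0.78 ± 0.32 on HFD (adjusted p = 1.0). In males labelled Cyp2b-null on ND, Clock had 9.10, 33.5 and 32.4 CPM, against 54.2, 52.9 and 44.3 CPM in WT ND males, and the lowest value is that of the divergent library. That difference was -1.0 ± 0.37 (adjusted p = 0.222) with it and -0.62 ± 0.18 (adjusted p = 0.133) without it. On HFD, males labelled Cyp2b-null (35.4 to 46.7 CPM) and WT males (37.0 to 48.9 CPM) overlapped.

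**Figure D2:**
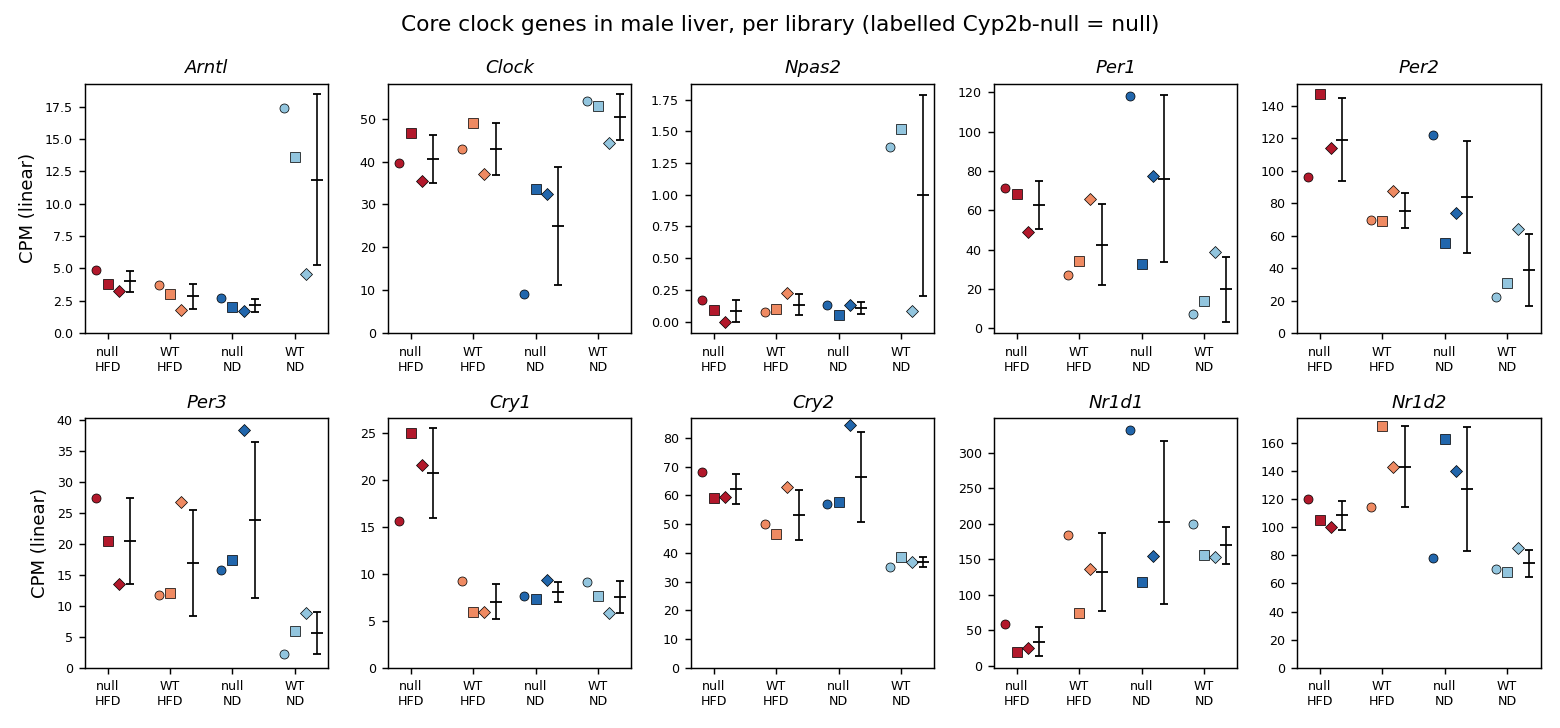
Level of each member in the 12 male liver libraries in CPM on linear axes, drawn as for females, where null stands for males labelled Cyp2b-null and the circle of null ND is the divergent library. Arntl and Npas2 are high in 2 of the 3 WT ND libraries, and Cry1 is highest and Nr1d1 lowest in the labelled Cyp2b-null HFD group.

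Per3, a period gene whose product binds the other PER proteins and whose promoter carries the D-boxes printed above, showed the reverse order of Arntl in females. Its levels were 29.3, 16.2 and 22.6 CPM in Cyp2b-null HFD livers, 6.95, 8.33 and 10.7 CPM in WT HFD livers, 17.4, 10.3 and 11.7 CPM in Cyp2b-null ND livers, and 1.39, 3.49 and 1.68 CPM in WT ND livers. The 3 WT ND libraries, with 3, 7 and 4 counts, lay below all others, and the Cyp2b-null HFD and WT HFD groups did not overlap. On ND, Per3 rose in Cyp2b-null females by 2.58 ± 0.42 on the log2 scale (95% interval 1.69 to 3.48; edgeR adjusted p = 0.0268). That call was lost without WT ND library 1, the one with 14.0% mitochondrially encoded counts (adjusted p = 0.118), WT ND library 3 (0.151), Cyp2b-null ND library 1 (0.0777) or Cyp2b-null ND library 3 (0.0771), with differences of 2.34 to 2.66, and when the compared groups were fitted alone (adjusted p = 0.0656). DESeq2 gave an adjusted p of 0.00044, and adding the 2 sides of the first component to the edgeR model gave 2.79 (adjusted p = 0.000781).

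Other differences of Per3 did not pass the test. In females they were 1.39 ± 0.33 for Cyp2b-null minus WT on HFD (95% interval 0.68 to 2.10, edgeR adjusted p = 1.0), 1.98 ± 0.43 for HFD minus ND in WT (1.06 to 2.90, adjusted p = 0.303) and 0.79 ± 0.32 for HFD minus ND in Cyp2b-null (adjusted p = 0.963). With those sides in the model the diet difference in WT females passed (2.0, adjusted p = 0.0374). Male levels were 27.4, 20.5 and 13.5 CPM in labelled Cyp2b-null HFD livers, 11.7, 12.1 and 26.7 CPM in WT HFD livers, 15.8, 17.4 and 38.4 CPM in labelled Cyp2b-null ND livers, and 2.16, 5.85 and 8.89 CPM in WT ND livers. As in females, every WT ND library lay below every other library. The male table lists Per3 in 2 rows, which were summed, and the second row holds 3 to 86 counts per library. Per3 at chr4:151003652-151044665 (GRCm38, GENCODE M21) overlaps the protein-coding gene Camta1 on the same strand. Strand could not separate reads of Per3 and Camta1 where they overlap, in either sex. On ND the labelled Cyp2b-null minus WT difference was 2.08 ± 0.54 (edgeR adjusted p = 0.185; 2.30 without the divergent library), and in WT males HFD minus ND was 1.58 ± 0.53 (adjusted p = 0.593).

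Per1, an inhibitor that is also induced within minutes to hours by stress and feeding signals, was uneven within groups. Female libraries had 14.1, 46.7 and 20.4 CPM in Cyp2b-null HFD, 4.63, 15.8 and 31.3 CPM in WT HFD, 10.9, 78.1 and 65.5 CPM in Cyp2b-null ND and 13.9, 15 and 17.6 CPM in WT ND livers. The highest 3 values all belong to libraries of the smaller side of the first component, whose WT libraries (WT HFD 1 and WT ND 1) had 4.63 and 13.9 CPM. The Cyp2b-null minus WT difference on ND was 1.73 ± 0.76 (edgeR adjusted p = 0.777). The 10 immediate early genes, such as Fos and Egr1, summed to 2100 to 3050 CPM in Cyp2b-null ND females, against 455 to 1190 CPM in WT ND females, and their part in the Per1 difference was not tested.

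In males Per1 had 71.2, 68.4 and 48.9 CPM in labelled Cyp2b-null HFD, 27.3, 34.1 and 65.9 CPM in WT HFD, 118, 32.9 and 77.3 CPM in labelled Cyp2b-null ND and 7.35, 13.6 and 38.6 CPM in WT ND livers. The ND groups overlapped through WT ND library 3. Their difference was 1.93 ± 0.60 (edgeR adjusted p = 0.213), against 1.46 without the divergent library, which had the 118 CPM. Per2, the other main inhibitor, ranged in males over 96.2 to 147 CPM in labelled Cyp2b-null HFD, 68.9 to 87.7 CPM in WT HFD, 55.4 to 122 CPM in labelled Cyp2b-null ND and 22.1 to 64.0 CPM in WT ND livers. The male differences were 1.11 ± 0.39 for labelled Cyp2b-null minus WT on ND (adjusted p = 0.213; 0.73 without the divergent library) and 0.95 ± 0.39 for HFD minus ND in WT (adjusted p = 0.722). In females Per2 ranged over 28.7 to 58.3 CPM in Cyp2b-null HFD, 16.6 to 44.5 CPM in WT HFD, 15.2 to 27.9 CPM in Cyp2b-null ND and 19.7 to 36.1 CPM in WT ND livers, where only the Cyp2b-null groups did not overlap with each other, and its differences ran from -0.38 to 0.81 with every 95% interval spanning 0.

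Cry1, the stronger repressor of the 2 cryptochromes, was highest in males labelled Cyp2b-null on HFD. It had 15.6, 25.0 and 21.6 CPM there, 9.18, 5.93 and 5.93 CPM in WT HFD males, 7.63, 7.26 and 9.28 CPM in labelled Cyp2b-null ND males and 9.17, 7.58 and 5.81 CPM in WT ND males. The labelled Cyp2b-null HFD group overlapped with none of the other 3, which overlapped with each other. The log2 difference was 1.56 ± 0.28 against WT on HFD (95% interval 0.96 to 2.16, edgeR adjusted p = 0.367) and 1.36 ± 0.27 for HFD minus ND within the labelled Cyp2b-null genotype (adjusted p = 0.215). DESeq2 called both (adjusted p = 0.000588 and 0.0032). Neither contrast of Cry1 rests on the divergent library, without which the values were 1.56 and 1.32 (edgeR adjusted p = 0.0584 and 0.173).

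Females did not show that pattern of Cry1. Their levels were 5.09, 12 and 6.41 CPM in Cyp2b-null HFD, 1.54, 12.1 and 10.3 CPM in WT HFD, 6.08, 2.69 and 1.62 CPM in Cyp2b-null ND and 6.48, 12.5 and 10.9 CPM in WT ND livers, from 4 to 29 counts per library. On ND the Cyp2b-null libraries lay below the WT ones, with a difference of -1.52 ± 0.64 (edgeR adjusted p = 0.71), and on HFD it was -0.03 ± 0.59. The female effect minus the male effect was -1.59 ± 0.66 on HFD (95% interval -2.96 to -0.23) and -1.63 ± 0.70 on ND, neither past the threshold (adjusted p = 1.0 and 0.384). Cry2, the other cryptochrome, was steadier. In males it ranged over 59.2 to 68.1 CPM in labelled Cyp2b-null HFD, 46.4 to 62.9 CPM in WT HFD, 56.9 to 84.3 CPM in labelled Cyp2b-null ND and 35.2 to 38.4 CPM in WT ND livers, so that WT ND lay below every other group. Its male differences were 0.85 ± 0.22 for labelled Cyp2b-null minus WT on ND (adjusted p = 0.185; 0.95 without the divergent library) and 0.53 ± 0.22 for HFD minus ND in WT (adjusted p = 0.716). Female Cry2 differences ran from 0.40 to 0.56 with intervals that reach or span 0.

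Nr1d1, the heme-binding receptor that represses Arntl, was lowest in males labelled Cyp2b-null on HFD. It had 58.0, 18.7 and 25.1 CPM there, 185, 74.4 and 137 CPM in WT HFD males, 333, 118 and 155 CPM in labelled Cyp2b-null ND males and 200, 156 and 153 CPM in WT ND males. The labelled Cyp2b-null HFD libraries lay below all other male libraries. The log2 differences were -1.96 ± 0.50 against WT on HFD (95% interval -3.05 to -0.86, edgeR adjusted p = 1.0) and -2.57 ± 0.51 for HFD minus ND within the labelled Cyp2b-null genotype (-3.69 to -1.45, adjusted p = 0.212). Without the divergent library, whose 333 CPM is the highest value, that diet difference was -2.0 ± 0.45 (adjusted p = 0.222). DESeq2 called the diet difference (adjusted p = 0.00019).

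Female Nr1d1 spanned less. It had 135, 67.5 and 93.1 CPM in Cyp2b-null HFD, 138, 155 and 112 CPM in WT HFD, 186, 137 and 167 CPM in Cyp2b-null ND and 93.5, 145 and 100 CPM in WT ND livers. HFD minus ND in Cyp2b-null females was -0.73 ± 0.26 (edgeR adjusted p = 0.963), and the 2 groups did not overlap. For that diet contrast the female effect minus the male effect was 1.85 ± 0.57 (95% interval 0.66 to 3.04, adjusted p = 0.965). Nr1d1 at chr11:98767932-98775333 (GRCm38, GENCODE M21, reverse strand) overlaps Thra on the opposite strand. Whether counting used strand is not stated, so reads of the 2 genes cannot be told apart where they overlap.

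Nr1d2, the related REV-ERB receptor, was lowest in WT ND livers of both sexes. In females it ranged over 83.7 to 105 CPM in Cyp2b-null HFD, 70.8 to 87.3 CPM in WT HFD, 74.4 to 106 CPM in Cyp2b-null ND and 57.0 to 63.4 CPM in WT ND livers. In males it had 120, 105 and 100 CPM in labelled Cyp2b-null HFD, 114, 172 and 143 CPM in WT HFD, 78.1, 163 and 140 CPM in labelled Cyp2b-null ND and 70.0, 67.8 and 85.0 CPM in WT ND livers. In females the WT ND libraries lay below all others, and in males the divergent library alone overlapped with them. The ND differences were 0.52 ± 0.20 in females (edgeR adjusted p = 0.599) and 0.77 ± 0.28 in males (adjusted p = 0.219), the second of which was 1.03 without the divergent library (adjusted p = 0.066) and 0.52 without labelled Cyp2b-null ND library 2. Without the divergent library Nr1d2 rose on HFD in WT males (0.94 ± 0.18, edgeR adjusted p = 0.0288); with it the value was 0.94 ± 0.28 (adjusted p = 0.526).

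The members were then counted in each comparison. On ND, Cyp2b-null against WT females gave 1 called member of 9 (Per3), where 0.127% of the genes tested were called. At an unadjusted p under 0.05 there were 6 of 9, against 6.33% of all genes: Per3, Per1 and Nr1d2 higher and Arntl, Clock and Cry1 lower. The median log2 difference of the 9 members was 0.40, against -0.02 over all genes tested. DESeq2 called 2 members on ND (Per3 and Arntl), where it called 0.643% of the genes. On HFD, Cyp2b-null against WT females gave 0 of 9 called by edgeR and by DESeq2 (0.0169% of all genes by each tool) and 2 of 9 at an unadjusted p under 0.05 (Per3 and Clock; 2.44% of all genes). Beside the ND contrast stand the immediate early genes given for Per1. Beside the HFD contrast, the 6 endothelial markers summed to 101 to 130 CPM in Cyp2b-null and 132 to 178 CPM in WT females, and their part was not tested.

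**Figure D3:**
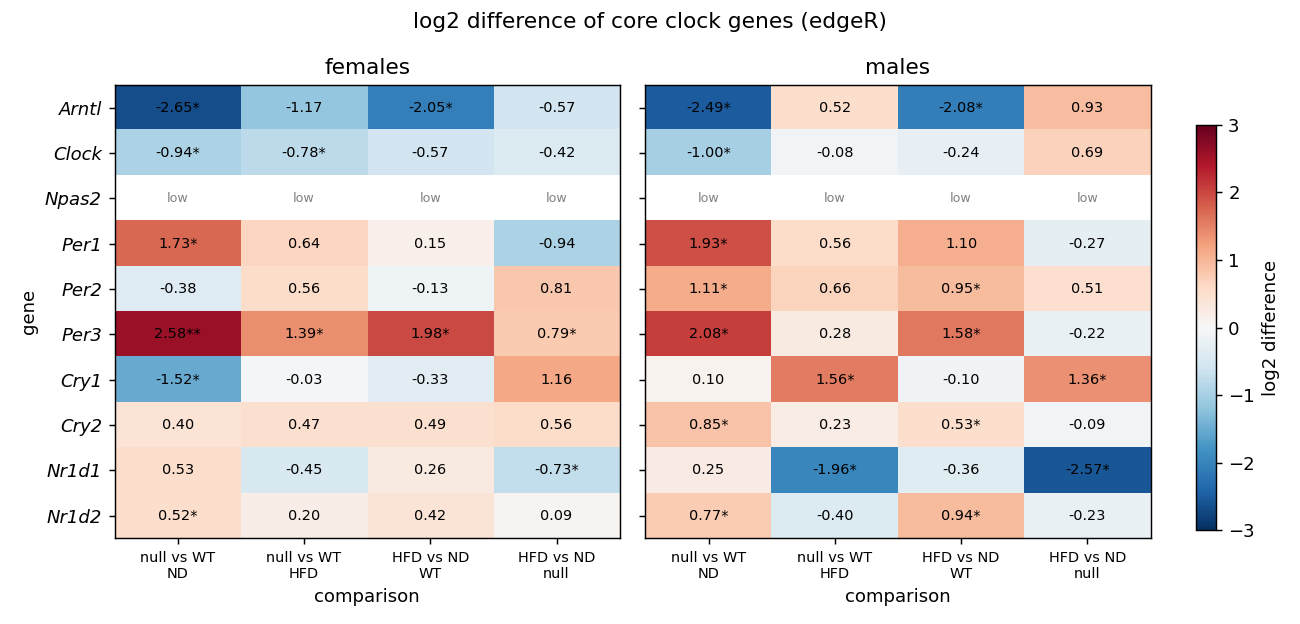
Log2 difference of each member (rows) in the 4 comparisons per sex (columns), from edgeR with all 12 libraries of a sex, where 1 star marks an unadjusted p under 0.05, 2 stars an adjusted p under 0.05, and low marks Npas2, which did not pass the filter. Per3 on ND in females (2.58) is the only cell with 2 stars. In the columns that subtract WT ND, Arntl is negative and Per3 positive in both sexes, and within a sex those columns share the WT ND libraries.

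The diet comparisons share the WT ND or the Cyp2b-null ND libraries with those of genotype, so their values stand side by side without being independent. In WT females HFD minus ND gave 0 of 9 members called by edgeR (0.0169% of all genes) and 0 by DESeq2 (0.364%), which left Per3 and Arntl without an adjusted p, and 2 of 9 at an unadjusted p under 0.05 (Per3 and Arntl; 3.48% of all genes). In Cyp2b-null females the same contrast gave 0 of 9 by both tools (0% of all genes by edgeR, 0.0254% by DESeq2) and 2 of 9 at the unadjusted threshold (Nr1d1 and Per3; 4.8% of all genes). The 8 Kupffer cell markers summed to 365 to 650 CPM in Cyp2b-null HFD and 180 to 346 CPM in Cyp2b-null ND females, and the 6 endothelial markers to 101 to 130 and 145 to 173 CPM in the same groups. Their part in these differences was not tested. The genotype by diet interaction in females gave 0 of 9 by both tools (0% of all genes by edgeR, 0.0931% by DESeq2), and Nr1d1 (-0.99 ± 0.36) and Per3 (-1.19 ± 0.54) at an unadjusted p under 0.05 (2.89% of all genes).

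In males on ND, labelled Cyp2b-null against WT gave 0 of 9 members called by edgeR (0.0134% of all genes) and 7 of 9 at an unadjusted p under 0.05, against 18.6% of all genes: Per3, Per1, Per2, Cry2 and Nr1d2 higher and Arntl and Clock lower. DESeq2 called 4 (Arntl, Per1, Per3 and Cry2) along with 2.88% of the genes it tested. The median was 0.77, against 0.06 over all genes. Without the divergent library edgeR again called 0 of the members (0.0462% of all genes), with 6 at the unadjusted threshold (17.3%). Without WT ND library 3 edgeR called 1 (Arntl) among 3 genes in all, and without labelled Cyp2b-null ND library 2 it called 4 among 724 genes, against 2 genes with every library. The 7 hepatocyte markers summed to 42400 to 82400 CPM in labelled Cyp2b-null ND and 110000 to 140000 CPM in WT ND males, and 6 of the 7 were lower, 2 of them at an unadjusted p under 0.05; their part in the members' differences was not tested. On HFD the male genotype contrast gave 0 of 9 by edgeR (0% of all genes), 1 by DESeq2 (Cry1; 0.121% of the genes) and 2 of 9 at an unadjusted p under 0.05 (Cry1 and Nr1d1; 2.12% of all genes). There edgeR called 0 of 10 once the divergent library was left out, with Nr1d2 (-0.39 ± 0.17) joining Cry1 and Nr1d1 at the unadjusted threshold (5.17% of all genes).

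In WT males HFD minus ND gave 0 of 9 members called by edgeR (0% of all genes), 1 by DESeq2 (Arntl; 0.596% of the genes) and 5 of 9 at an unadjusted p under 0.05 (6.49% of all genes): Per3, Per2, Cry2 and Nr1d2 higher and Arntl lower. Without the divergent library, which is in neither group and acts through the shared estimate of the spread, 2 members were called, Arntl and Nr1d2, where 0.72% of all genes were, and 6 of 10 reached an unadjusted p under 0.05 (17.2% of all genes). The hepatocyte markers summed to 83600 to 102000 CPM in WT HFD males, against the 110000 to 140000 CPM of WT ND males, and their part was not tested. Within the labelled Cyp2b-null genotype HFD minus ND gave 0 of 9 by edgeR (0% of all genes), 2 by DESeq2 (Cry1 and Nr1d1; 0.838% of the genes) and the same 2 at an unadjusted p under 0.05 (11.1% of all genes). In that contrast, without the divergent library, edgeR called 0 of 10 members (0.0859% of all genes), with 5 at the unadjusted threshold (6.46%). The male interaction gave 0 of 9 by edgeR (0% of all genes), 1 by DESeq2 (Arntl; 0.121% of the genes) and 5 of 9 at the unadjusted threshold (4.65% of all genes). These were Arntl (3.01 ± 0.65) and Cry1 (1.46 ± 0.39) upward and Nr1d1 (-2.21 ± 0.69), Nr1d2 (-1.17 ± 0.39) and Per3 (-1.81 ± 0.73) downward, with edgeR adjusted p of 0.89 or 0.891. The interaction without the divergent library gave 0 of 10 called (0.00661% of all genes) and 7 at the unadjusted threshold (7.72%), with Nr1d1 at -1.64, Nr1d2 at -1.42 and Per3 at -2.03.

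Female effects minus male effects were tested in a joint fit of the 24 libraries (15043 genes, all 10 members). No member was called by edgeR or DESeq2 in any of the 4 contrasts (DESeq2 called 0.323% of the genes for genotype on ND, 0.0133% on HFD, 0.00665% for diet in WT and 0% in Cyp2b-null). For the genotype contrast on ND, 0.0332% of all genes were called and 2 of 10 members had an unadjusted p under 0.05 (11.7% of all genes): Per2 (-1.49 ± 0.60) and Cry1. For that on HFD, 0.0133% were called and again 2 of 10 members were under 0.05 (1.54%): Nr1d1 (1.49 ± 0.57) and Cry1. For diet in WT, 0.00665% of all genes were called and 0 of 10 members were under 0.05 (3.71%). For diet in Cyp2b-null, 0% were called and 2 of 10 members were under 0.05 (4.65%): Nr1d1 and Clock (-1.11 ± 0.51). Without the divergent male library these were 1.24 for Nr1d1 and -0.74 for Clock, and Per2 on ND was -1.08.

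The activators and repressors were also set against each other within each library, on the log2 CPM scale with a prior count of 2. The mean of Arntl, Clock and Npas2 minus the mean of Per1, Per2, Per3, Nr1d1 and Nr1d2 was -3.86 ± 0.44 in Cyp2b-null HFD, -2.76 ± 0.50 in WT HFD, -3.48 ± 0.62 in Cyp2b-null ND and -1.09 ± 0.23 in WT ND females (SD, n = 3 each). In males it was -4.02 ± 0.11 in labelled Cyp2b-null HFD, -4.23 ± 0.43 in WT HFD, -5.05 ± 0.50 in labelled Cyp2b-null ND and -2.08 ± 1.47 in WT ND livers. In females the WT ND libraries (-1.36 to -0.93) lay apart from all others (-4.35 to -2.38). In males WT ND 1 and 2 had -0.97 and -1.52, whereas WT ND 3 had -3.75, next to labelled Cyp2b-null HFD 2 with -3.90 and WT HFD 2 with -3.94. This index is a description of levels that are not per length, without a test, and it repeats the values of its members.

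**Figure D4:**
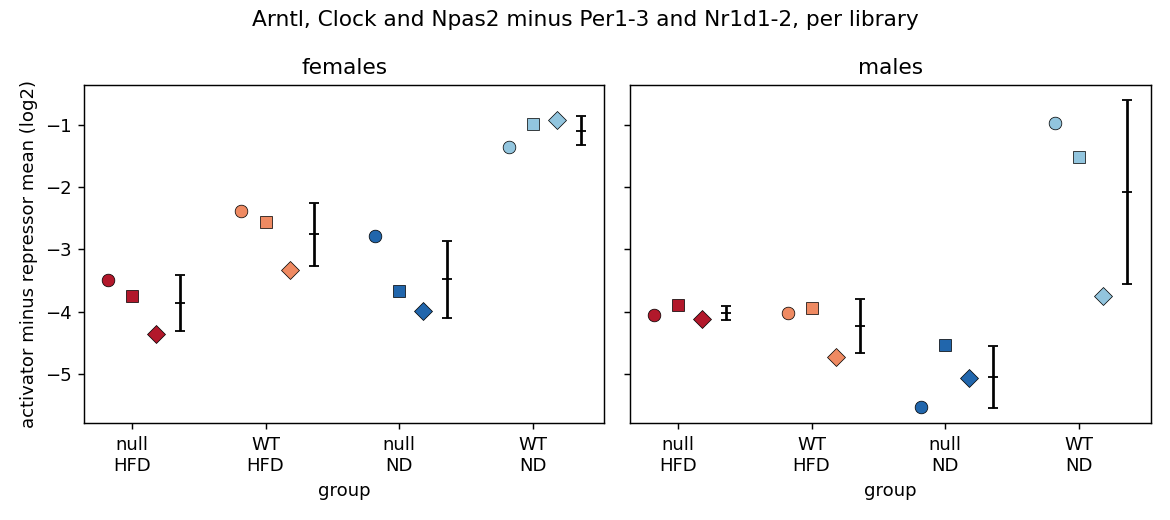
Mean log2 CPM of Arntl, Clock and Npas2 minus that of Per1, Per2, Per3, Nr1d1 and Nr1d2 in each library, females left and males right, with null standing for Cyp2b-null or, in males, labelled Cyp2b-null, circle, square and diamond for libraries 1, 2 and 3, and the bar for mean ± SD (n = 3). The female WT ND libraries (-1.36 to -0.93) lie above all other female libraries, and male WT ND 3 (-3.75) lies near the other male groups.

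The difference between Arntl and Per3 set WT ND apart as well. The log2 CPM of Arntl minus that of Per3 was 1.88, 2.19 and 2.06 in the female WT ND libraries, against -4.79 to -0.76 in the other 9 female libraries. In males it was 2.92, 1.20 and -0.95 in WT ND, against -4.38 to -1.62 in the other 9. Since the WT ND libraries (in males 2 of the 3) lie apart, no correlation over all 12 libraries is given with a test. Those printed further below are descriptions. Over the 9 libraries outside WT ND, the log2 CPM of Arntl was correlated with that of each of the 9 other members per sex, 18 relations in all, by exact two-sided permutation tests. None passed: the smallest p was 0.0513, for Clock in females (Pearson r = 0.66, Spearman rho = 0.33 with p = 0.385, adjusted p = 0.701 for r and 0.738 for rho), and without the 2 libraries farthest from the median of Arntl that r was -0.38. For Per3 outside WT ND, r was -0.40 in females (exact permutation p = 0.297) and -0.38 in males (p = 0.311). Outside WT ND an opposition of Arntl and Per3 was thus not detectable with 9 libraries per sex.

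**Figure D5:**
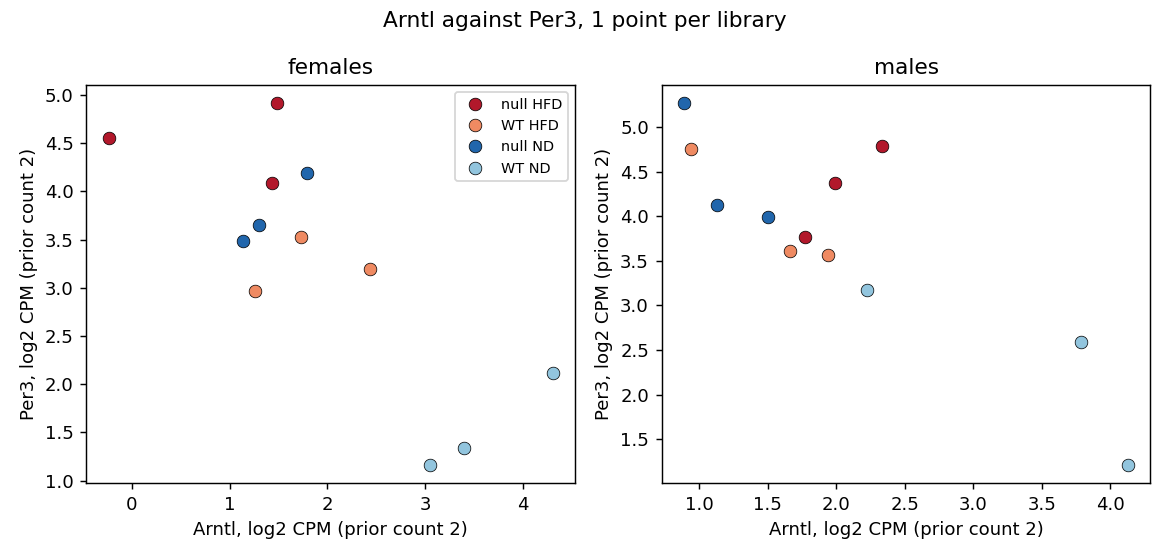
Log2 CPM of Per3 against that of Arntl, 1 point per library, females left and males right, coloured by group (null stands for Cyp2b-null or labelled Cyp2b-null). The 3 female and 2 of the 3 male WT ND libraries lie apart at high Arntl and low Per3, and the third male WT ND library lies beside the other groups.

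Among the genes ranked (mean log2 CPM 1 or more), those whose pattern over the 12 libraries was most like that of Arntl in females were Tubb2a (r = 0.952), Clpx (0.915) and Leo1 (0.913) of 10321 ranked, and Clock ranked 18th (r = 0.842). The most opposite were Acaa1a (-0.895), Bnip3 (-0.892) and Optn (-0.883). In males Tubb2a again came first (r = 0.911), followed by Abtb2 (0.908) and Ints3 (0.899), and Slc5a6 (-0.936), Synj2 (-0.895) and Klf13 (-0.895) were most opposite. Clock ranked only 1213th of 10736 there (r = 0.447). For Nr1d1 the most alike were Tcp11l2 (0.939), Plekhg3 (0.92) and Col18a1 (0.885) in females and Ubald2 (0.931), Tmco6 (0.912) and Mtmr14 (0.897) in males. The most opposite to Nr1d1 were Cyp2d26 (-0.819), Cox10 (-0.811) and Ptp4a3 (-0.8) in females and Saa4 (-0.911), Lipg (-0.909) and Trp53inp2 (-0.907) in males. These values describe likeness over 12 libraries that share group differences and depth, and carry no test. Those for Arntl include the WT ND libraries, which lie apart. Over the 9 female libraries outside WT ND, the r of Clock with Arntl was 0.66.

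Further genes of the clock were counted from a list of 27, of which 23 were tested in females and 26 in males. In the main edgeR fit none was called in any of the 10 comparisons within a sex. Leaving the divergent library out changed that count in 1 male comparison, and leaving out each library in turn changed it in 3 runs. Without the filter on low counts it changed in 4 comparisons, those between the sexes included. On ND, 3 of 23 had an unadjusted p under 0.05 in females, against 6.33% of all genes, and were higher in Cyp2b-null, among them Nampt, an enzyme of NAD synthesis (0.65 ± 0.25). On ND in males there were 6 of 26, against 18.6% of all genes (1891 higher and 868 lower), and they were higher in labelled Cyp2b-null, among them Usp2, a deubiquitinase (2.92 ± 0.77, edgeR adjusted p = 0.185), and DESeq2 called 3 (2.88% of the genes).

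In the other comparisons, 2 further clock genes of 23 in Cyp2b-null against WT on HFD (2.44% of all genes; Usp2 2.01 ± 0.54 and Ciart 1.80 ± 0.81), 1 of 23 in HFD against ND in WT (3.48%; Nampt 0.85 ± 0.25) and 2 of 23 in HFD against ND in Cyp2b-null (4.8%; Usp2 1.42 ± 0.52 and Nampt 0.54 ± 0.24) had an unadjusted p under 0.05 in females. In males 2 of 26 reached that threshold on HFD (2.12% of all genes), with Noct at 1.65 ± 0.70, and 4 of 26 did in HFD against ND in WT (6.49%), with Rora, a receptor that activates at ROREs, at 0.68 ± 0.25. In the diet contrast of labelled Cyp2b-null males 2 were higher, with Noct at 1.95 ± 0.71, and 1 was lower (11.1% of all genes). Dbp, the clock-driven activator at D-boxes, rose on ND in Cyp2b-null females, with 191, 187 and 234 CPM against 25.9, 44.9 and 23.1 CPM in WT ND females (2.71 ± 0.29, edgeR adjusted p = 0.000499), and each alternative run kept that call (2.53 to 3.07). In WT females Dbp also rose on HFD (2.14 ± 0.29, adjusted p = 0.0242), a call lost with the replicate number as a block (2.12 ± 0.31, adjusted p = 0.102), with the compared groups alone (0.312), and without WT ND library 1 (0.0512), WT ND library 3 (0.275) or WT HFD library 3 (0.16).

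In males Dbp had 120, 52.8 and 82.1 CPM in labelled Cyp2b-null HFD, 163, 134 and 216 CPM in WT HFD, 709, 201 and 266 CPM in labelled Cyp2b-null ND and 34.4, 76.8 and 143 CPM in WT ND livers. The highest of these, 709 CPM, is the value of the divergent library. On ND the labelled Cyp2b-null libraries lay above the WT ones, as in females, and on HFD they lay below them, whereas the female Cyp2b-null HFD libraries (225, 237 and 300 CPM) lay above the WT HFD ones (168, 89.5 and 154 CPM). The male differences of Dbp were 2.21 ± 0.57 on ND (edgeR adjusted p = 0.185) and -1.01 ± 0.55 on HFD (adjusted p = 1.0), and on HFD the female effect minus the male effect was 1.88 ± 0.64 (adjusted p = 1.0). Tef, Hlf and Nfil3, the other output factors listed, were not called by edgeR with every library in the fit. Tef had 1.0 ± 0.23 in females (adjusted p = 0.141) and 1.46 ± 0.32 in males (adjusted p = 0.165) on ND, and in males it was called by DESeq2 (adjusted p = 0.00153) and by edgeR without labelled Cyp2b-null ND library 2 (1.60, adjusted p = 0.0421). Over all alternatives run, 1 to 2 of the 4 output factors were called on ND in females, where 5 to 121 of all genes were. In males these were 0 to 2 factors and 0 to 724 genes.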

How the data were processed

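RNA of 24 liver libraries was sequenced, and raw read counts by gene symbol were deposited in a table for each sex. Named in the submitters' processing notes are GSNAP, Subread, Trimmomatic, FastQC and edgeR, with GRCm38.p5 as build; their settings, versions and use of strand are absent from the sources read here. Sample titles set the groups, and 6 female libraries carry a genotype characteristic that goes against their title. Libraries of a group differed by more than sampling noise in every pair (chi-square over degrees of freedom at least 5.57). Counts of a symbol listed more than once were summed, and 25 date-like symbols were not tested.

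The main test was the quasi-likelihood test of edgeR 4.0.16 (R 4.3.3) on the deposited counts of all 12 libraries of a sex, with 1 term per group, TMM scaling, filterByExpr (minimum count 10), robust dispersion and Benjamini-Hochberg adjustment over all genes tested, called at adjusted p under 0.05. Levels are CPM computed with TMM factors, and 2 was the prior count on the log2 scale. The script was tested on simulated data. Alternatives were DESeq2 1.42.0, RLE scaling, no filter, compared groups alone, a replicate block, a term for library sides, the first row of repeated symbols, and leaving out each library, and for correlations a prior count of 0.5, deviations from group means and leaving out the 2 farthest libraries. Leaving the divergent male library out of every male comparison and the correlations outside WT ND were chosen after seeing the data.

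Replicate numbers come from the titles. They were taken to pair libraries where every same-numbered pair deviated together (r over 0.1), which held only for HFD against ND in WT (r 0.139 to 0.564 in females, 0.11 to 0.127 in males). Even there, not every female library correlated best with its own number. The main test used no pairing, and the replicate block was run as an alternative. The members and gene lists were chosen with earlier results of these data known. Every member is named with counts or CPM; a difference is printed where its unadjusted p is under 0.05, others as ranges. Of further clock genes, those called or the 2 with the smallest p are named, except for 1 gene that is not reported here, and likeness to Arntl and Nr1d1 names the 3 highest and 3 lowest r. Mitochondrially encoded genes carry RefSeq names, not the mt- prefix, in these tables. Exonic length is the union of GENCODE M21 exons.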

Additional observations from a re-analysis of the deposited data

Results flagged for a closer look

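Arntl levels in males stood in opposite orders by diet in the 2 genotypes. Every WT library was lower on HFD (1.77 to 3.69 CPM) than on ND (4.53 to 17.4 CPM), and every library labelled Cyp2b-null was higher on HFD (3.27 to 4.90 CPM) than on ND (1.70 to 2.68 CPM). Within the labelled Cyp2b-null genotype the log2 difference, HFD minus ND, was 0.93 ± 0.47 (95% interval -0.08 to 1.94, edgeR adjusted p = 0.472), and in WT it was -2.08 ± 0.46 (adjusted p = 0.311). The test of the difference between them, the genotype by diet interaction, gave a log2 value of 3.01 ± 0.65 (unadjusted p = 0.00058, edgeR adjusted p = 0.89), which did not pass, while DESeq2 gave 3.02 with an adjusted p of 0.0143. Without the divergent male library, in the labelled Cyp2b-null ND group, edgeR gave 3.19 ± 0.66 (adjusted p = 0.249).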

How the results depend on the processing

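Member differences were set beside their values in each alternative run. In 682 such pairs the difference kept its direction and its side of the threshold. For 2 of these, Per3 and Arntl for HFD minus ND in WT females by DESeq2, direction alone was compared, since no adjusted p was given. In 24 pairs it passed where the reported value did not, in 6 it no longer passed, and in 1 it changed sign. Only Per3 on ND in females was called as reported, so for the other differences keeping their side meant staying uncalled. The sign change was Nr1d2 in HFD minus ND of males labelled Cyp2b-null, whose log2 difference of -0.23 ranged from -0.48 to 0.00 with 1 library left out, 0.00 being that without ND library 2. Counts of called members were also stable in 196 cases and moved in 21. For Cyp2b-null against WT on ND in females (1 called), no filter and DESeq2 gave 2 (Per3 and Arntl), among 121 and 76 genes called in all. The compared groups alone and the replicate block gave 0 there (21 and 8 genes in all). For HFD against ND in WT females (0), 1 (Per3) was called without the filter and 1 with library sides in the model (38 and 15 genes in all). In males (0 called in each), labelled Cyp2b-null against WT on ND gave 4 by DESeq2 (427 genes in all) and 1 without the filter (35 genes). On HFD that contrast gave 1 by DESeq2 (18 genes). HFD against ND in WT males gave 1 by DESeq2 (85 genes). It gave 2 with library sides in the model (96 genes) or without the divergent library (109 genes). Those last runs are not separate checks, since in males the library sides set the divergent library alone apart. HFD against ND in labelled Cyp2b-null males gave 2 by DESeq2 (117 genes) and 1 without the filter (26 genes). The male interaction gave 1 by DESeq2 (18 genes). Leaving out 1 library at a time gave 0 to 1 called members for the ND genotype contrast in females (5 to 12 genes in all). In males it gave 0 to 4 (1 to 724 genes in all), and in the other comparisons 0. No other call of a member moved, and no member was called in a difference between the sexes under any alternative run.

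With the replicate number as a block, the Per3 difference of Cyp2b-null against WT on ND in females was 2.56 ± 0.44 (edgeR adjusted p = 0.0647). There the numbers are only shared numbers: same-numbered pairs had r of -0.374 to -0.167, and not every library correlated best with its own number. The block changed no other call of a member. Over all 12 libraries the Pearson r of Arntl sets WT ND against the rest. In females that with Per3 was -0.77 and that with Nr1d2 -0.65, against 0.45 and 0.30 as deviations from group means. In males that with Npas2 was 0.81 and that with Per2 -0.70, against -0.23 and 0.23 without the 2 libraries farthest from the median of Arntl. Some other relations of Arntl changed sign too, such as Cry2 in females (-0.53, against 0.28 as deviations) and Clock in males (0.45, against -0.03). Arntl with Per3 in males kept its sign, with -0.85, -0.69 as deviations from group means and -0.50 without the 2 farthest. In females Arntl with Per3 had -0.80 without the 2 farthest. Depth limits Npas2, with 0 to 16 counts per library. In females it also limits Arntl, where a WT HFD or Cyp2b-null library can hold under 10 reads, and Per3, where the WT ND libraries do. Over all genes, the ND genotype contrast called 15 in females (5 to 121 over the alternatives) and 2 in males (0 to 724). Usp2 on HFD in females passed without WT HFD library 3 (edgeR adjusted p = 0.0295). Why these counts moved was not tested.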
